A study of Mus musculus with 3 samples.

Results

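Cells rich in the transcripts of an amino acid response were described among mouse splenic CD4+ T cells that had been stimulated through their antigen receptor. Each cell was scored by its UMIs (unique molecular identifiers, each standing for 1 captured RNA molecule) of 5 genes, *Asns*, *Chac1*, *Trib3*, *Ddit3* and *Psat1*, divided by all UMIs of the cell. The members, called *Asns*-high cells here, were chosen by this measured score as the 10% of cells with the highest value in each stimulated library, and they were compared with the 50% of cells of the same library that had the lowest value, the low-score cells. The members numbered 761 of 7602 cells of the WT library and 725 of 7244 cells of the IFT20-KO library, so 1486 of 14846 cells that passed the filter and of 32505 barcodes in all 3 libraries. The filter kept barcodes with at least 4056 UMIs and under 15% of UMIs from mitochondrial genes, which was 73.7% of the WT barcodes and 52.0% of the IFT20-KO barcodes.

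All cells came from spleens of C57BL/6 male mice of 5 to 10 weeks, were enriched for naïve CD4+ T cells and, before the libraries were made, were sorted as CD3+, CD4+ and negative for the dead-cell dye 7AAD. WT cells carried 2 floxed alleles of *Ift20*, which encodes a transport protein of cilia that T cells also use, without Cre (*Ift20* f/f), and IFT20-KO cells carried the same alleles with Cre driven by *Cd4* sequences (*Ift20* f/f CD4 cre), which acts in all T cells that pass through a CD4+ stage of the thymus. The libraries called CD3/CD28 held WT and IFT20-KO cells after 24 h in culture with antibodies against CD3 and against CD28, each at 1 μg/mL, and the library called none held WT cells at 0 h in the buffer DPBS. The filtered cells held 29876738 UMIs in the unstimulated library, with a median of 5233 a cell, 112586119 in stimulated WT, with 13952 a cell, and 89877195 in stimulated IFT20-KO, with 11716 a cell. With 1 library for each of these groups there was no replicate and no test was made, and genotype cannot be told apart from library. Every interval given, except those of list medians, is a 95% interval for counting error only. *Ift20* had 77.1 UMIs per 1000000 UMIs (CPM) in the filtered WT cells and 6.76 CPM in the filtered IFT20-KO cells, and the number of mice behind a library was not given in the sources used here.

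When amino acids run short, the kinase GCN2 phosphorylates the initiation factor eIF2, most translation slows, and the mRNA of the transcription factor ATF4 is translated. ATF4 pairs with C/EBP-type partners and switches on genes for amino acid uptake and synthesis, for the charging of tRNAs and for feedback control, and other kinases lead to the same factor from stress of the endoplasmic reticulum (ER), viruses or heme shortage. In activated T cells ATF4 is known for driving amino acid uptake and one-carbon metabolism while the cells grow. *Asns* makes asparagine and *Psat1* is a step of serine synthesis, whereas *Chac1* degrades glutathione, *Trib3* is a pseudokinase that dampens ATF4, and *Ddit3* encodes the stress factor CHOP.

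The composite site that ATF4 and C/EBP proteins are known to bind was looked for as the letters TGATGNAA on either strand, in windows of 300 bases (250 before and 50 after each RefSeq start, assembly GRCm38.p6). It lay wholly before the start in 3.45% of the 32851 windows. Of the score genes, *Asns* and *Chac1* had it there, and the stretches around it are shown with those of the 7 ATF4 target or partner genes that had it there and were at least 1.5-fold higher in both libraries (below). Among other genes of the ATF4 lists, *Got1*, under that line, and *Slc7a11*, *Fgf21*, *Nupr1*, *Jdp2* and *Vldlr*, which were too scarce to be measured, also had it and are not shown. Each is written 5′ to 3′ on the strand of its gene, and the capitals mark the matching letters, which read TTNCATCA where the match is on the opposite strand.
Asns (chr6:7693210-7693248, minus strand): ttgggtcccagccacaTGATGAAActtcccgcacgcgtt
Chac1 (chr2:119351033-119351072, plus strand): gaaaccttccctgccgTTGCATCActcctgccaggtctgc
Atf3 (chr1:191183420-191183459, minus strand): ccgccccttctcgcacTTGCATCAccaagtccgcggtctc
Herpud1 (chr8:94386301-94386340, plus strand): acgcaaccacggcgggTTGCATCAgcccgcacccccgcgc
Pck2 (chr14:55540147-55540186, plus strand): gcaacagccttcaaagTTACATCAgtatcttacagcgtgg
Pycr1 (chr11:120643828-120643867, minus strand): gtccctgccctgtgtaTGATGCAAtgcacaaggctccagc
Aars (chr8:111033714-111033753, plus strand): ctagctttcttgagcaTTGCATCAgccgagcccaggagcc
Gars (chr6:55037955-55037994, plus strand): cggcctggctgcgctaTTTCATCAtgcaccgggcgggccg
Tars (chr15:11399659-11399689, minus strand): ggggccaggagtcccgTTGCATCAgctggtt

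The windows of *Psat1* and *Ddit3* did not hold these letters, and in that of *Trib3* they lay after the start. The promoter table had windows for 40 of the 54 measured genes of the ATF4 programme, under 80%, so a share over the programme would be void and none is given. A match is a string of letters and no evidence of binding.

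The rule takes a fixed share of each library whatever its level, so the level itself was compared first, with every cell thinned to 4056 UMIs. The 5 genes together had 49.0 CPM (46.1 to 52.1) in the unstimulated WT cells, 427 CPM (420 to 434) in the stimulated WT cells and 400 CPM (393 to 407) in the stimulated IFT20-KO cells. *Asns* went from 0 UMIs in 5263 unstimulated cells, which allows up to 0.173 CPM, to 57.8 and 54.8 CPM, and *Psat1* from 23.0 CPM to 315 and 293 CPM. *Ddit3* did not follow, with 20.7 CPM in the unstimulated cells and 13.2 and 15 CPM in the stimulated WT and IFT20-KO cells. A thinned cell reached the WT threshold with 4 UMIs of the 5 genes, which 0.0570% of the unstimulated cells, 14.6% of the stimulated WT cells and 12.3% of the stimulated IFT20-KO cells did. The histograms of both stimulated libraries had a single peak at low counts and a tail. The mean was only 1.73 UMIs a cell in WT and 1.62 in IFT20-KO. Whether a separate group of cells would show at such counts was not tested.

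**Figure D1:**
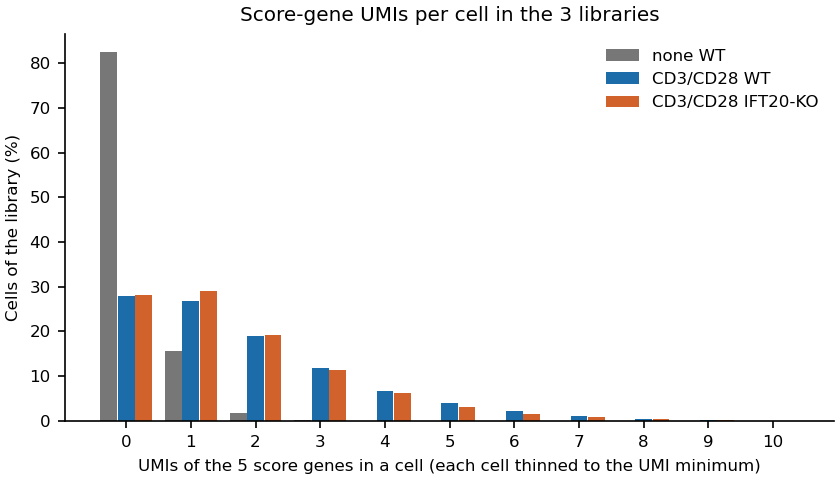
Share of the cells of each library (y axis, percent) by the UMIs of the 5 score genes they held (x axis) after thinning to 4056 UMIs a cell, for unstimulated WT (grey), stimulated WT (blue) and stimulated IFT20-KO cells (orange). Counts above 10 are not drawn. The unstimulated cells sit almost entirely at 0 and 1, and both stimulated libraries run out in a tail in which 14.6% of WT and 12.3% of IFT20-KO cells have 4 or more.

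Since the *Asns*-high cells are cut from a score, they are a range of it and are not called a cell type. The lowest member had a score of 875.96 CPM in WT and 833.52 in IFT20-KO, and the highest cell left out had 875.56 and 833.26. Within 10% of the threshold lay 477 WT cells, of which 204 were members, and 440 IFT20-KO cells, of which 189 were members. The following values chose the members and are given as a description. *Asns* had 246 CPM in *Asns*-high cells and 13.9 CPM in the low-score cells of WT, and 219 against 14.0 CPM in IFT20-KO. *Psat1* had 736 against 149 CPM in WT and 723 against 137 CPM in IFT20-KO, and alone gave 65.4% and 67.3% of the members' score UMIs. *Chac1* had 74.2 against 5.87 CPM in WT and 65.7 against 5.64 CPM in IFT20-KO, *Trib3* had 53.5 against 5.78 and 49.0 against 5.98 CPM, and *Ddit3* had 16 against 10.1 and 18.3 against 10.4 CPM. *Psat1* supplied more than 50% of the score in 589 of the 761 WT members and 570 of the 725 IFT20-KO members. No UMI of *Asns* was found in 25.1% of the WT members and 27% of the IFT20-KO members, so the name *Asns*-high holds for the group and not for each cell.

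A score gene says nothing about cells that it helped to choose, so each was left out in turn and read in cells ranked by the other 4. Of the 5 genes, 4 were higher in the top 10% of cells ranked without them than in the low-score cells. *Asns* had 139 CPM in the top 10% ranked without it and 30.5 CPM in the low-score cells of WT, a log2 ratio of 2.19 (2.08 to 2.29), and the log2 ratio in IFT20-KO was 2.10 (1.98 to 2.21). In cells thinned to the UMI minimum these ratios were 1.46 and 1.37, and with the score genes weighted equally 1.52 and 1.49. *Chac1* had log2 ratios of 2.07 and 2.04 and *Trib3* of 2.16 and 2.0 in WT and IFT20-KO. *Psat1*, with 508 against 271 CPM in WT and 480 against 259 CPM in IFT20-KO, had log2 ratios of 0.91 and 0.89, which fell below the 1.5-fold line to 0.49 and 0.41 in cells thinned to the UMI minimum. *Ddit3* stood apart, with 13.9 against 13 CPM in WT (0.10, −0.16 to 0.35) and 13.3 against 14.9 CPM in IFT20-KO (−0.17, −0.46 to 0.12). Against all other cells in place of the low-score cells, the median over the 5 genes was 1.28 in both libraries, compared with 2.07 and 2.0. Both intervals of *Ddit3* included 0 and both upper ends lay below 1.5-fold. At this setting the transcript of CHOP therefore did not mark the cells that the other genes marked, and its place among the marker genes was not borne out. With the score genes weighted equally its log2 ratios were 0.34 in WT and 0.07 in IFT20-KO. Over 13 alternatives the log2 ratio of *Ddit3* ran from −0.13 to 0.38 in WT, highest with the top 5% of cells. In IFT20-KO it ran from −0.28 to 0.14.

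**Figure D2:**
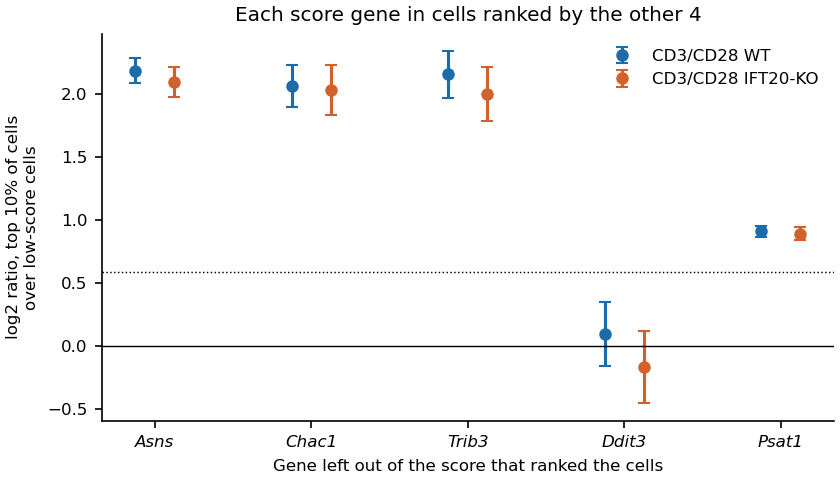
Log2 ratio (y axis) between the top 10% and the low-score cells, ranked by the other 4 genes, of each score gene (x axis), in WT (blue) and IFT20-KO (orange), with 95% counting intervals. The dotted line is 1.5-fold. *Asns*, *Chac1* and *Trib3* lie near 2, *Psat1* near 0.9, and the intervals of *Ddit3* include 0 in both libraries.

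Genes that the score did not use were then compared between *Asns*-high cells and the low-score cells within each library. Below, the first of a pair of log2 ratios is that of WT and the second that of IFT20-KO unless said otherwise, and the first of a pair of CPM values joined by against is that of the *Asns*-high cells. Of 10157 genes with at least 50 UMIs over both groups in each library, 158 were at least 1.5-fold higher in both libraries (1.56%) and 385 at least 1.5-fold lower in both (3.79%), while 17 passed 1.5-fold in opposite directions. In WT alone 3.48% were higher and 7.64% lower, in IFT20-KO alone 2.97% and 6.39%, and the median log2 ratio over all genes was 0.0056 in WT and 0.0049 in IFT20-KO. With every cell thinned to 4056 UMIs, 80 genes were higher in both, and against all other cells in place of the low-score cells 101 were higher and 243 lower. Of 64 genes listed as known ATF4 targets or partners, 54 could be measured and 38 of these were at least 1.5-fold higher in both libraries, with none lower. The median log2 ratio of the 54 genes was 0.93 in WT and 0.87 in IFT20-KO. Per cell, the 64 genes took a median of 0.916% of the UMIs of an *Asns*-high cell and 0.443% of a low-score cell in WT, and 0.857% and 0.446% in IFT20-KO. The list has the same kind of genes as the score, so its count is a description of cells that were ranked by members of the same programme.

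**Figure D3:**
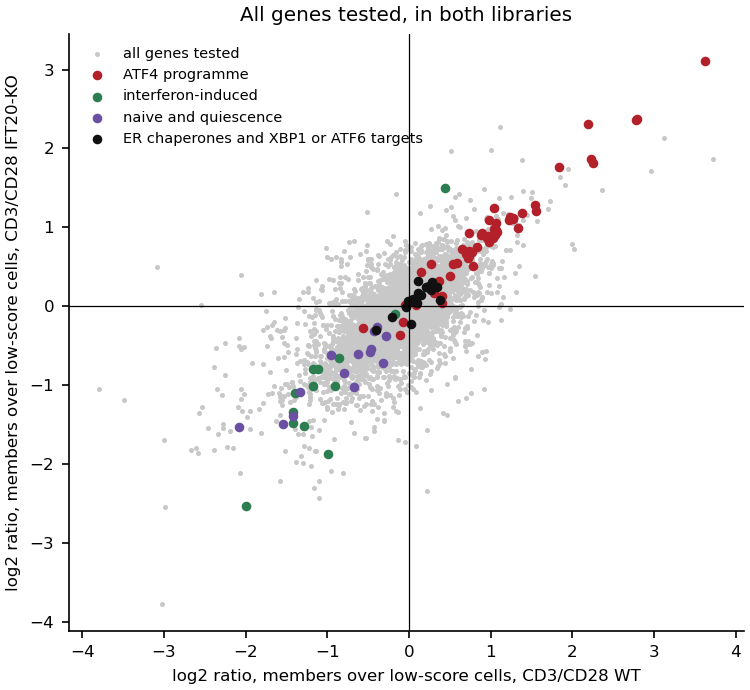
Each point is 1 of 10157 genes outside the score, by its log2 ratio of *Asns*-high cells over the low-score cells in WT (x axis) and IFT20-KO (y axis). Genes of the ATF4 programme (red) lie to the upper right with medians of 0.93 and 0.87, interferon-induced genes (green, medians −1.17 and −1.02) and naïve and quiescence genes (violet, medians −0.65 and −0.67) to the lower left, and ER chaperones (black) near 0.

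Of the 5 measured factors in the list of ATF4 and its partners, *Cebpb*, a partner of ATF4, had log2 ratios of 1.54 and 1.28. It had 152 CPM in *Asns*-high cells and 52.4 CPM in the low-score cells of WT, and 128 against 52.5 CPM in IFT20-KO. *Atf4* itself had 268 against 170 CPM in WT (log2 ratio 0.65) and 234 against 142 CPM in IFT20-KO (0.72), a smaller difference than most of its targets had, in a gene that is controlled mainly in translation. *Atf3*, a stress-induced factor, had 25.4 against 12.4 CPM and 15.7 against 6.62 CPM, and *Atf5*, another factor translated under stress, had log2 ratios of 0.74 and 0.93. *Cebpg*, the usual partner of ATF4 on its sites, stayed under 1.5-fold with 0.54 and 0.53.

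Feedback genes and effectors of stress were divided, with 3 of 7 measured genes past 1.5-fold in both libraries. *Eif4ebp1*, which encodes a repressor of cap-dependent translation, had 630 CPM in *Asns*-high cells and 176 CPM in the low-score cells of WT, and 575 against 169 CPM in IFT20-KO. In the unstimulated cells it had 12.5 CPM. *Sesn2*, a sensor that restrains mTORC1, had log2 ratios of 1.34 and 0.99, and *Herpud1*, which serves the disposal of ER proteins, of 0.72 and 0.61. The others lay lower: *Ppp1r15a*, the phosphatase subunit that reverses eIF2 phosphorylation, had 0.15 and 0.43, *Ddit4*, an inhibitor of mTORC1, had 0.09 and 0.02, *Sqstm1*, an autophagy receptor, had −0.05 and 0.02, and the death receptor gene *Tnfrsf10b* had −0.07 and −0.20.

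Amino acid transporters were higher, 7 of 11 past 1.5-fold in both libraries. The largest ratios belonged to *Slc7a3*, a carrier of arginine and lysine, with 31.2 against 4.54 CPM in WT and 29.2 against 5.66 CPM in IFT20-KO, and to *Slc6a9*, a glycine carrier, with 18.3 against 4.0 and 16.4 against 3.30 CPM. Both were close to absent from the unstimulated cells, at 0.0335 and 0.10 CPM. *Slc7a5* and *Slc3a2*, the subunits of the large neutral amino acid carrier LAT1, had 179 against 76.5 CPM and 292 against 150 CPM in WT, and 175 against 82.3 CPM and 255 against 138 CPM in IFT20-KO. *Slc1a4* and *Slc1a5*, carriers of small neutral amino acids and glutamine, had log2 ratios of 1.56 and 0.70 in WT and 1.20 and 0.66 in IFT20-KO, and *Slc7a1*, a carrier of cationic amino acids, had 0.90 and 0.92. The glutamine carriers *Slc38a1* (0.37 and 0.32) and *Slc38a2* (0.40 and 0.05) and the exchanger *Slc7a6* (0.40 and 0.13) stayed under 1.5-fold, and *Slc43a2* had −0.11 and −0.37.

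Enzymes of serine, glycine and one-carbon metabolism were higher as a set, 7 of 8 past 1.5-fold, with medians of 1.15 and 1.03. *Phgdh*, the first step of serine synthesis, had 742 CPM in *Asns*-high cells and 355 CPM in the low-score cells of WT, and 665 against 340 CPM in IFT20-KO. *Psph*, its last step, had 349 against 144 CPM and 310 against 143 CPM. The mitochondrial one-carbon enzymes *Shmt2* (539 against 228 CPM in WT) and *Mthfd2* (486 against 200 CPM in WT) had log2 ratios of 1.24 and 1.28, and of 1.13 and 1.1 in IFT20-KO. *Mthfd1l*, in the same pathway, had 0.74 and 0.70, the cytosolic *Shmt1* 0.96 and 0.86, and the scarce *Aldh1l2* 2.79 and 2.37, with 4.35 and 3.58 CPM in the members. *Mthfd1*, the cytosolic enzyme, had 0.50 and 0.38 and was the member under 1.5-fold.

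Of 9 other enzymes of amino acid synthesis 6 passed 1.5-fold in both libraries. *Cth*, which makes cysteine from cystathionine, had the largest ratio of all genes named by rule, with 55.2 CPM in *Asns*-high cells and 4.46 CPM in the low-score cells of WT, 12.4-fold, and 51.6 against 5.98 CPM in IFT20-KO, 8.64-fold. It had no UMI in the unstimulated cells. At equal depth a UMI of *Cth* was found in 16.3% of *Asns*-high cells (13.7 to 19.1) and 1.60% of the low-score cells of WT, and in 13.9% (11.5 to 16.7) and 2.18% in IFT20-KO. *Pck2*, the mitochondrial phosphoenolpyruvate carboxykinase, had 177 against 37.7 CPM and 167 against 45.8 CPM, and *Gpt2*, an alanine transaminase, had log2 ratios of 2.26 and 1.81. The proline enzymes *Pycr1* (1.38 and 1.19) and *Aldh18a1* (1.06 and 0.90) and the branched-chain transaminase *Bcat1* (0.98 and 1.09) were also higher. The aspartate transaminase *Got1* stood at the line with 0.58 and 0.55, *Got2* near 0 with 0.03 and 0.07, and *Glul*, which makes glutamine, pointed down with −0.57 and −0.28.

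The cytosolic aminoacyl-tRNA synthetases were placed in 2 lists, those known as ATF4 targets and the rest, with earlier results of these data known. The ratios of the 2 lists overlapped, with *Farsb* and *Rars* of the second above *Vars* of the first in both libraries. Of 14 genes of the first list, which holds the tRNA exporter *Xpot* as well, 11 were at least 1.5-fold higher in both libraries and all 14 were higher, with medians of 0.86 and 0.78. *Nars* had 369 against 177 CPM in WT and 340 against 164 CPM in IFT20-KO, *Gars* had 498 against 236 and 438 against 228 CPM, and *Tars* had 236 against 115 and 216 against 110 CPM. *Aars*, *Cars*, *Lars* and *Yars* had log2 ratios between 0.81 and 1.03, and *Sars*, *Eprs*, *Iars* and *Mars* between 0.64 and 0.83. *Vars* (0.31 and 0.16), *Wars* (0.27 and 0.54) and *Xpot* (0.78 and 0.51) did not pass in both libraries. Of 7 other cytosolic synthetases none passed, with medians of 0.23 and 0.21. *Farsb*, a subunit of the phenylalanine enzyme, had 0.50 and 0.48, *Rars*, the arginine enzyme, had 0.44 and 0.49, *Hars* had 0.23 and 0.35, and *Qars*, the glutamine enzyme, was lower with −0.34 and −0.19. None of 17 mitochondrial synthetases passed, with medians of 0.08 and 0.06, *Mars2* having 0.28 and 0.67, *Rars2* 0.39 and 0.29, *Yars2* 0.22 and 0.34 and *Vars2* 0.33 and 0.16.

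**Figure D4:**
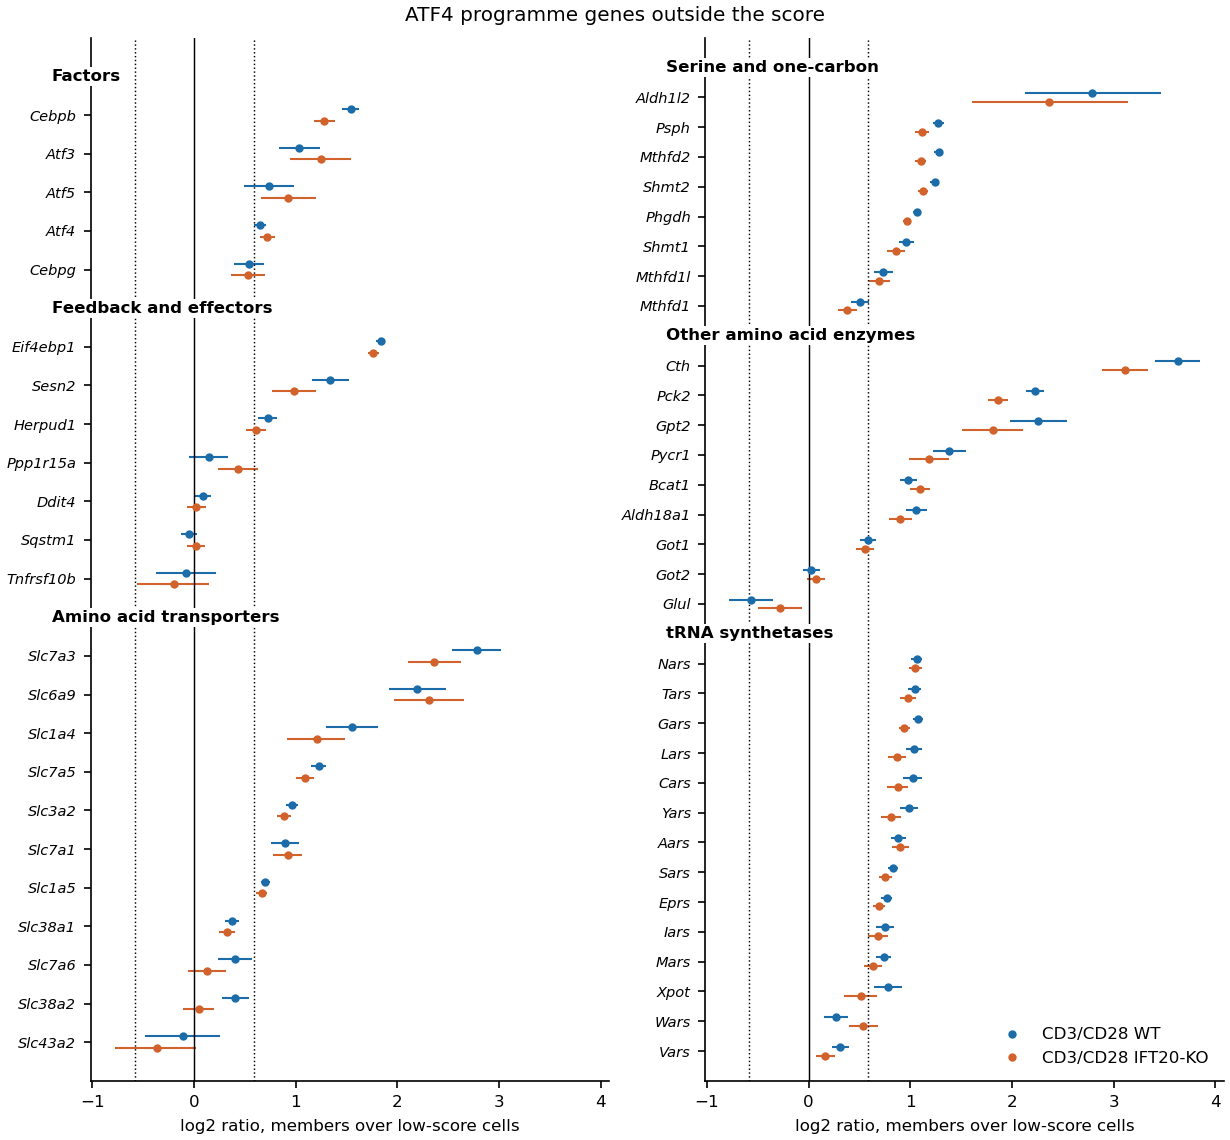
Log2 ratio of *Asns*-high cells over the low-score cells (x axis) for each of the 54 measured genes of the ATF4 programme in 6 groups, in WT (blue) and IFT20-KO (orange), with 95% counting intervals. Dotted lines mark 1.5-fold in either direction. The 38 genes past the right line in both libraries range up to *Cth* at 3.63 and 3.11, and *Ddit4*, *Sqstm1* and *Got2* sit near 0.

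Upstream of ATF4, only *Eif2s2*, the beta subunit of eIF2, passed 1.5-fold among 15 genes for eIF2, its kinases and its exchange factor, with 556 against 326 CPM in WT and 497 against 309 CPM in IFT20-KO. *Eif2b3* (0.58 and 0.48) and *Eif2s1* (0.40 and 0.39) followed below the line. The kinase genes were scarce: *Eif2ak4*, which encodes GCN2, had 6.69 against 5.76 CPM in WT and 7.16 against 7.55 CPM in IFT20-KO, and *Eif2ak2*, the interferon-inducible kinase PKR, had −0.57 and −0.30. Kinase activity is not measured by these counts.

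Other stress programmes did not move with the score to the same extent. None of 18 ER chaperones and targets of XBP1 or ATF6 passed 1.5-fold, with medians of 0.11 and 0.09, and −0.02 in WT when each score gene had equal weight. The chaperone BiP, *Hspa5*, had 527 against 417 CPM in WT (0.34) and 522 against 441 CPM in IFT20-KO (0.24), *Creld2* had 0.28 and 0.31, *Sdf2l1* 0.25 and 0.26, and *Edem1*, of ER-associated degradation, −0.40 and −0.30. None of 7 cytosolic heat shock genes passed, the highest being *Hsph1* with 0.34 and 0.48 and *Hsp90aa1* with 0.31 and 0.32, ahead of *Hspa8* (0.19 and 0.20) and *Dnajb1* (0.13 and 0.08). Among 11 targets of the oxidative stress factor NRF2, *Hmox1*, heme oxygenase, had 18.4 against 6.20 CPM and 15.7 against 7.41 CPM, and *Srxn1* passed on few UMIs with 1.13 against 0.744 CPM in WT, where its interval included 0. The antioxidant genes *Txnrd1* (0.47 and 0.34), *Prdx1* (0.13 and 0.18) and *Gclm* (0.01 and 0.11) did not pass, and the medians were 0.13 in both.

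Targets of p53 leaned the other way, with medians of −0.66 and −0.39 over 13 genes. *Trp53inp1* (−0.73 and −0.81) and *Sesn1* (−0.90 and −0.65) were at least 1.5-fold lower in both libraries, and *Pmaip1*, scarce at 1.83 against 3.55 CPM in WT, had −0.96 and −0.56. Of the 2 genes that were higher in both libraries, *Aen* had 0.13 and 0.13, and *Plk2*, a stress-induced kinase that was placed in this list, had 36.5 against 10.1 CPM in WT and 39.0 against 12.5 CPM in IFT20-KO. *Cdkn1a*, the cell cycle inhibitor p21, was lower in WT, 88.6 against 107 CPM, and higher in IFT20-KO, 105 against 96.1 CPM. Whether the libraries differ in this was not tested.

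By the rule 4944 genes with at least 20 CPM in either group in both libraries were ranked. Of the 15 with the largest increase 6 were of the ATF4 lists, namely *Cth*, *Slc7a3*, *Pck2*, *Eif4ebp1*, *Cebpb* and *Pycr1*. Those lists hold 54 measured genes, and how many of these were among the 4944 was not counted. *Ccl3*, *Ccl4* and *Xcl1*, which encode chemokines of activated T cells, and *Plk2* were in other lists. The remaining 5 were in no list. *Gys1*, glycogen synthase, had 36.3 against 9.65 CPM in WT and 28.0 against 9.61 CPM in IFT20-KO. *Crabp2*, a carrier of retinoic acid, had 24.7 against 4.81 and 21.8 against 7.86 CPM and no UMI in the unstimulated cells. *Cd160*, a surface receptor of lymphocytes, had log2 ratios of 1.51 and 1.44, *Clic4*, an intracellular chloride channel, had 1.49 and 1.38, and *Ciart*, a repressor of the circadian clock, had 1.21 and 1.16.

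Much of the chemokine UMIs of the WT members came from few cells. *Ccl3* had 121 against 13.9 CPM in WT and 53.2 against 12.1 CPM in IFT20-KO, but a single WT cell held 622 of the 1394 *Ccl3* UMIs of the WT members, and the 5 richest cells held 74.1% of them, against 28.9% in IFT20-KO. At equal depth a UMI of *Ccl3* was found in 7.23% of *Asns*-high cells (5.49 to 9.30) and 2.10% of the low-score cells (1.67 to 2.61) of WT, and in 8.69% (6.74 to 11) and 2.82% (2.30 to 3.41) in IFT20-KO, and in 0 of 5263 unstimulated cells. *Ccl4* had 356 against 92.3 CPM and 323 against 97.0 CPM, with a UMI in 19.6% against 8.47% of cells in WT and 22.9% against 13.5% in IFT20-KO. A single WT member held 789 of 4094 *Ccl4* UMIs, and the 5 richest held 40.5% in WT and 19.6% in IFT20-KO. *Xcl1* had 32.7 against 4.18 CPM in WT, where 5 cells held 93.1% of it, and 28.1 against 8.53 CPM in IFT20-KO, where 5 cells held 68.3%. The share of WT cells with a UMI of *Xcl1*, 1.05% against 0.474%, overlapped in its intervals, and that of IFT20-KO cells, 3.31% (2.13 to 4.89) against 1.38% (1.03 to 1.82), did not. Without all cells that held a UMI of these 3 genes, an alternative chosen after the data were seen, the median of the ATF4 programme was 0.93 in WT and 0.86 in IFT20-KO. Of the 10% of cells richest in *Ccl3* and *Ccl4*, 17.9% were *Asns*-high in WT and 19.0% in IFT20-KO, against 10% of all cells by the rule. Since both sets are of 1 size, 17.9% and 19.0% are also shares of the members.

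The list of T cell activation held other genes. Of 19 measured, *Il2*, *Nr4a3* and *Pdcd1* were past 1.5-fold beside the 3 chemokines. *Il2*, the growth factor of T cells, had 158 against 93.8 CPM in WT and 109 against 42.7 CPM in IFT20-KO. In WT the 5 richest cells held 22.2% of its UMIs in the members and 20.5% in the low-score cells. In IFT20-KO these shares were 24.5% and 14.9%. At equal depth a UMI of *Il2* was found in 17.1% against 8.16% of WT cells and 13.5% against 7.23% of IFT20-KO cells. *Nr4a3*, an early target of receptor signaling, had 47.3 against 22.4 and 37.1 against 18.3 CPM, and *Pdcd1*, which encodes PD-1, had 0.59 and 0.62. *Gzmb*, a granule protease, was scarce and lower, with 2.70 against 4.71 CPM in WT and 0.651 against 2.82 CPM in IFT20-KO. The activation markers *Cd69* (−0.03 and 0.11) and *Il2ra* (0.22 and 0.23) were close between the groups. *Ifng* was below the minimum of UMIs in IFT20-KO and was not measured there.

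Genes of naïve and resting T cells were lower in *Asns*-high cells, 8 of 14 past 1.5-fold and all 14 in direction, with medians of −0.65 and −0.67. *Klf2*, which holds T cells quiescent, had 55.4 against 148 CPM in WT and 46.6 against 122 CPM in IFT20-KO. *S1pr1*, the receptor for exit from lymph nodes, had 2.78 against 11.8 and 3.47 against 10.0 CPM, and *Igfbp4* had 43.5 against 126 and 68.7 against 193 CPM. In the unstimulated cells these genes were far higher still, *Klf2* at 1035 CPM and *S1pr1* at 274 CPM. The low-score cells therefore held more of these transcripts. Whether more of them were little activated or all held a little more was not tested. When the 25% of each library's cells richest in these genes were left out, an alternative chosen after the data were seen, the median of the ATF4 programme was 0.78 in WT and 0.71 in IFT20-KO, the genes higher in both libraries were 126 and the genes lower in both were 144, against 385. The median of the naïve genes was then −0.23 in both libraries, with *Igfbp4* at 0.15 in WT. These genes chose the cells left out, so nothing is concluded from that change. The median of the naïve genes was −0.26 and −0.37 when each score gene had equal weight.

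Interferon-induced genes were lower as well, 11 of 13 past 1.5-fold in both libraries, with medians of −1.17 and −1.02. *Gbp2*, a GTPase of host defense, had 138 against 368 CPM in WT and 53.6 against 150 CPM in IFT20-KO. *Igtp*, another such GTPase, had 70.2 against 188 and 37.1 against 93.9 CPM. *Usp18*, a brake on interferon signaling, had −2.0 and −2.53 on few UMIs, with 1.13 against 4.52 and 0.434 against 2.51 CPM. *Ifit1*, a sensor of viral RNA, had −1.29 and −1.52, and *Iigp1*, a GTPase, −0.98 and −1.88, the latter on 11.6 and 1.30 CPM in *Asns*-high cells. *Isg15*, a ubiquitin-like protein, went against its list with 13.7 against 10.1 CPM in WT and 9.54 against 3.37 CPM in IFT20-KO, and *Bst2* stood at −0.17 and −0.10. In unstimulated cells *Igtp* had 98.1 CPM, above the *Asns*-high cells of WT, and *Gbp2* and *Gbp5* had 52.5 and 5.59 CPM, below them. The medians of the list were −0.67 and −0.49 without the cells richest in naïve genes, −0.40 and −0.44 when each score gene had equal weight, and −0.70 and −0.57 when members were chosen without *Psat1*.

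The 10 genes with the largest decrease by rule were *Mxd4*, *Igfbp4*, *Gbp2*, *Klf2*, *Igtp*, *Ikbke*, *Fam189b*, *Samhd1*, *Bcl3* and *Gbp5*. *Mxd4*, an antagonist of MYC on its sites, had 4.35 CPM in *Asns*-high cells and 21.1 CPM in the low-score cells of WT, and 10.6 against 30.0 CPM in IFT20-KO. *Samhd1*, which degrades nucleotides, had 97.1 against 281 and 93.6 against 206 CPM, and *Bcl3*, a regulator of NF-kB, had log2 ratios of −1.48 and −1.12. *Ikbke*, a kinase of innate immunity, had −1.21 and −1.15, and *Fam189b* had −1.39 and −1.15. Weighting the score genes equally left 128 genes lower in both libraries and choosing the members without *Psat1* left 147, against 385, while the genes higher in both were 116 and 109, against 158.

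All 20 genes of the ribosome biogenesis list were higher in both libraries and none reached 1.5-fold, with medians of 0.42 and 0.40. These became 0.19 and 0.25 when each score gene had equal weight. *Srm*, spermidine synthase, which was placed in this list, had 630 against 425 CPM and 583 against 401 CPM. *Nolc1* had 0.53 and 0.49, *Polr1b*, of RNA polymerase I, 0.56 and 0.43, and *Wdr43* 0.47 and 0.47. All 20 S phase genes were also higher in both, with medians of 0.27 and 0.23, which became −0.05 and 0.04 when each score gene had equal weight. *Rrm2*, a subunit of ribonucleotide reductase, passed 1.5-fold with 0.71 and 0.76, followed by *Cdc6* (0.59 and 0.41), *Clspn* (0.41 and 0.43) and *Ung* (0.46 and 0.36). Of 19 G2/M genes 4 passed, *Birc5* (0.82 and 0.95), *Ube2c* (0.72 and 0.78), *Ccna2* (0.74 and 0.73) and *Kif23* (0.60 and 0.72), all at under 20 CPM, and *Cenpf* had 0.45 and 0.99. The G2/M medians were 0.38 and 0.45. The medians of the genes' lower and upper interval ends were −0.01 and 0.82 in WT and 0.02 and 0.95 in IFT20-KO. The WT median became −0.06 when each score gene had equal weight. Glycolysis genes had small medians of 0.01 and 0.10, both of which changed sign under other settings. The medians of their lower and upper interval ends were −0.02 and 0.07 in WT and 0.07 and 0.18 in IFT20-KO. *Pfkp*, a phosphofructokinase, passed with 196 against 126 and 171 against 103 CPM, *Hk2* had 0.52 and 0.83, *Slc2a1* and *Slc16a3*, carriers of glucose and lactate, had 0.32 and 0.26 in WT and 0.37 and 0.42 in IFT20-KO. None of 16 cholesterol genes passed, with medians of 0.08 and 0.03, *Mvk* having −0.68 and −0.42, *Lss* 0.41 and 0.20, *Mvd* −0.23 and −0.33 and *Dhcr7* −0.29 and −0.25.

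Levels of genes outside the score were also read along the whole score. Over 10 bins, each of 10% of the cells in order of score, *Eif4ebp1* went from 112 CPM in the first bin to 249 in the fifth, 512 in the ninth and 630 in the last in WT, and from 127 to 222, 439 and 575 CPM in IFT20-KO. *Phgdh* went from 256 to 444, 644 and 742 CPM in WT, and *Nars* from 130 to 223, 329 and 369 CPM. *Cth* went from 2.51 to 8.72, 28.6 and 55.3 CPM, so that most of its difference lay in the upper bins. *Atf4* went from 141 to 210, 243 and 268 CPM, and *Hspa5* from 392 to 459, 486 and 527 CPM in WT and from 438 to 439, 463 and 522 CPM in IFT20-KO. *Gbp2* went down from 493 CPM in the first bin of WT to 224, 182 and 138 CPM, and *Klf2* from 231 to 88.3, 68.4 and 55.4 CPM, so that most of both differences lay within the lower 5 bins.

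**Figure D5:**
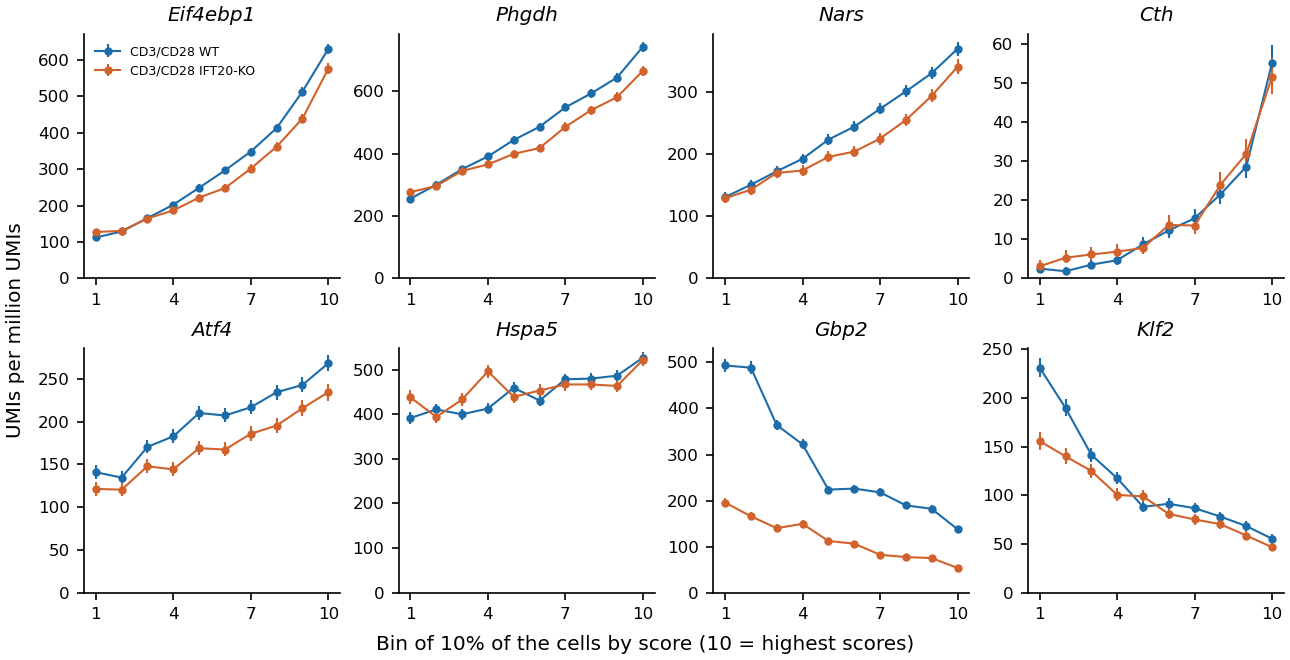
CPM (y axis, from 0) of 8 genes outside the score in 10 bins of the cells by score (x axis, 10 being the highest scores) in WT (blue) and IFT20-KO (orange), with 95% counting intervals. *Eif4ebp1*, *Phgdh*, *Nars* and *Atf4* climb from the lower to the upper bins, *Cth* climbs mainly over the upper ones (28.6 to 55.3 CPM in the last 2 of WT), *Hspa5* climbs less for its level (392 to 527 CPM from the first to the last of WT), and *Gbp2* and *Klf2* drop mostly over the lower bins.

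Among the members, those in which *Psat1* gave more than 50% of the score were compared with the others. Some genes of the ATF4 programme were close between them, such as *Phgdh* with 738 and 761 CPM in WT and 666 and 660 CPM in IFT20-KO, and *Nars* with 366 and 379 and 341 and 333 CPM. Of those read here, *Atf3*, *Cebpb* and *Mthfd2* had counting intervals that did not overlap in either library. *Atf3* had 21.4 and 40.7 CPM in WT and 10.9 and 35.6 CPM in IFT20-KO, *Cebpb* had 144 and 186 and 120 and 158 CPM, and *Mthfd2* had 475 and 528 and 421 and 479 CPM. *Sesn2*, with 33.0 and 41.1 CPM in WT and 25.2 and 42.8 CPM in IFT20-KO, and *Cth*, with 53.5 and 61.8 and 47.8 and 67.3 CPM, had intervals that overlapped in WT and did not in IFT20-KO. The same held for *Atf4* (226 and 269 CPM in IFT20-KO) and *Ddit4* (115 and 162 CPM in IFT20-KO). Intervals of *Eif4ebp1* (615 and 688 CPM in WT) and *Pycr1* (40.4 and 56.3 CPM in WT) were apart in WT and overlapped in IFT20-KO. Outside the programme, *Plk2* had 31.3 and 56.8 CPM in WT and 33.4 and 62.3 CPM in IFT20-KO. *Il2* went opposite ways, with 140 and 227 CPM in WT and 115 and 85.6 CPM in IFT20-KO. The median member held 0 UMIs of *Il2* in both libraries, and the 5 richest members held 22.2% of its UMIs in WT and 24.5% in IFT20-KO. *Ccl3* had 52.9 and 385 CPM in WT, where it was concentrated in few cells, and 40.5 and 106 CPM in IFT20-KO. Members without a UMI of *Asns* had 612 CPM of *Eif4ebp1* in WT and 557 CPM in IFT20-KO, against 635 and 581 CPM in members with one. For *Cth* these values were 43.3 and 37.9 CPM against 58.9 and 56.2 CPM, and for *Slc7a3* 19.2 and 29.3 CPM against 34.9 and 29.1 CPM. These genes were picked after their values were seen.

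The *Asns*-high cells were CD4+ T cells by their markers, and their quality was close to that of the low-score cells. *Cd3e* had 818 against 939 CPM in WT and 843 against 967 CPM in IFT20-KO, *Cd3g* had −0.35 and −0.37, *Cd28* −0.29 and −0.30, *Cd3d* −0.15 and −0.14, and *Cd4* had 96.5 against 105 and 128 against 134 CPM. The 7 erythroid and platelet markers had no UMI, and neither had *Ms4a1* of B cells nor *Lyz2*, *S100a8* and *S100a9* of myeloid cells. The 8 B cell markers summed to 42.2 CPM in *Asns*-high WT cells, nearly all of it *Cd74*, the 10 myeloid markers to 72.3 CPM, nearly all of it *Cst3*, and the 8 CD8 and NK markers to 22.6 CPM. Their medians over cells were 0 for B cell and for CD8 and NK markers. *Nkg7*, a granule protein of cytotoxic cells, had 7.48 against 3.74 CPM in WT and 10.8 against 2.75 CPM in IFT20-KO, while *Cd8b1* had 8.69 against 8.75 and 8.13 against 10.4 CPM, *Klrd1* had 0.92 and −1.05, and *Eomes* 0.10 and −0.14. *Foxp3*, the factor of regulatory T cells, had 2.61 against 3.89 and 4.01 against 4.61 CPM, with log2 ratios of −0.40 and −0.64 for *Ctla4* and −0.35 and −0.34 for *Tnfrsf18*, 2 receptors that are high in these cells.

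The median *Asns*-high cell had 14337 UMIs against 13042 in the low-score cells of WT and 12366 against 10942.5 in IFT20-KO, and 1596 against 1558 genes in WT and 1615 against 1576 in IFT20-KO after thinning. Mitochondrial genes took 1.19% against 1.31% of UMIs in WT and 1.00% against 1.12% in IFT20-KO. Of the members 9.59% in WT and 9.24% in IFT20-KO were in the 10% of cells with the most UMIs, where doublets would gather. The 2 stimulated libraries shared 207 barcode sequences and the unstimulated library shared 125 and 141 with them. With cells matched by total UMIs, the median of the ATF4 programme was 1.01 in WT and 0.84 in IFT20-KO.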

How the data were processed

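Libraries were made with the 10x Genomics Chromium platform. The labels name a 5′ kit and the study's methods a 3′ kit, which was not settled here, and differences were therefore taken within a gene. A gene's share of the UMIs of several genes is a share of captured UMIs and not a comparison of transcript levels. The deposited files hold raw UMI counts for 31053 genes and every called barcode, made by the authors with Cell Ranger 3.1.0, per the file headers, on mm10, per the labels. Barcodes with at least 4056 UMIs, which is the median of the stimulated WT library divided by 3 and rounded up, and under 15% of UMIs from mitochondrial genes were kept. No doublet caller was run and no doublet was removed.

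Each kept cell of the stimulated libraries was scored by its UMIs of *Asns*, *Chac1*, *Trib3*, *Ddit3* and *Psat1* over all its UMIs. The members were the top 10% of each library and were compared with the lower 50%, the low-score cells. UMIs were summed over the cells of each group and given as CPM, their number per 1000000 UMIs, with exact Poisson intervals, and log2 ratios with exact binomial (Clopper-Pearson) intervals at 95%. The genes tested had at least 50 UMIs over both groups in each library, a gene was called at 1.5-fold in both libraries, and a count of 0 was read against a floor of 3 counts. The log2 ratio, its interval and the 1.5-fold call were tested on simulated Poisson counts, the spread that the intervals assume. Spread between cells, scoring, choice of members and thinning were not simulated. Named genes were, of each ATF4 list, all that were measured, of each other list the 4 with the largest mean log2 ratio in size, and over all genes with at least 20 CPM in either group of both libraries the 15 with the largest and the 10 with the smallest ratio, by the weaker of both libraries. *Eif2ak4*, *Gclm*, *Cdkn1a*, *Aen*, *Pgk1*, *Kif23*, *Il2*, *Nr4a3*, *Pdcd1*, *Cd69*, *Il2ra*, *Ifng*, *Isg15*, *Bst2* and *Cd4* were named after their values were seen. Some genes are not reported here. The members of the score and the lists were chosen with earlier results of these data known. UMI intervals cover counting error only. The interval of a list's median runs from the median of its genes' lower ends to the median of their upper ends. It is not an interval of the median itself. Cells of 1 library are not replicates, so no p-value was computed. Alternatives were the share taken as members, the cells compared, depth, filters, scaling, weighting of the score and genes left out of it. Sequences came from RefSeq (GRCm38.p6). Python 3.11.15, numpy 2.4.6, scipy 1.17.1, pandas 2.3.3 and matplotlib 3.10.9 were used.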

Additional observations from a re-analysis of the deposited data

Results flagged for a closer look

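Barcodes below the minimum of 4056 UMIs, which only the alternatives without that minimum used, also held the score genes. The 5 genes together had 265 CPM (250 to 281) in 2301 such barcodes of stimulated WT and 329 CPM (320 to 337) in 6676 of stimulated IFT20-KO, above the 49.9 CPM (44.9 to 55.3) in 2768 of the unstimulated library. What these barcodes are, whole cells of low RNA content or others, was not tested.

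The stimulated libraries pointed in opposite directions for 2 genes of the lists, with intervals that excluded 0 in both. *Cdkn1a* had a log2 ratio of *Asns*-high cells over the low-score cells of −0.27 in WT and 0.13 in IFT20-KO, and *Pgk1*, a glycolytic kinase, had −0.037 in WT and 0.064 in IFT20-KO. The difference between the libraries was not tested, and both ratios of *Pgk1* were small.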

How the results depend on the processing

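The median of the ATF4 programme stayed above 0 in both libraries under 17 alternatives, 3 of them chosen after the data were seen, and that of the score genes left out in turn under the 13 that were run for it, 2 of them chosen so. For a list, the interval meant here runs from the median of its genes' lower ends to the median of their upper ends. Results for gene lists gave 812 values. Of these, 140 moved outside that interval and 7 changed sign from a value whose interval excluded 0. Results for genes gave 2468, of which 810 moved outside their counting interval and 1 changed sign in that way. The genes higher in both libraries, 158, were 290 with a minimum of 10 UMIs, 101 against all other cells and 80 in thinned cells. The genes lower in both, 385, were 243 against all other cells, 246 with a minimum of 200 UMIs, 128 with the score genes weighted equally, and, chosen after the data were seen, 144 without the 25% of cells richest in naïve genes and 147 with members chosen without *Psat1*.

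The median of the ATF4 programme in WT, 0.93, was 0.63 against all other cells, 0.69 in thinned cells, 0.72 with equal weights, 0.78 without the cells richest in naïve genes and 0.67 without *Psat1*. In IFT20-KO, 0.87, it was 0.76 with the top 20%, 0.61, 0.66, 0.66, 0.71 and 0.64 under the same settings in that order, and 0.69 with no UMI minimum. The median of the score genes left out in turn in WT, 2.07, was 2.25 with the top 5%, 1.28 against all other cells, 1.46 in thinned cells, 1.52 with equal weights and 1.89 without the cells richest in naïve genes. In IFT20-KO, 2.0, it was 1.71 with the top 20%, 1.28, 1.37 and 1.49 under the middle of these settings, 1.72 with no UMI minimum and 1.70 without cells that held *Ccl3*, *Ccl4* or *Xcl1*. The level of the score, 427 CPM in WT and 400 CPM in IFT20-KO, was 447 and 420 CPM at each cell's own depth, 389 and 374 CPM with no UMI minimum and thinning to 1400 UMIs, and 369 and 345 CPM without *Asns*.

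Medians that changed sign from a value whose interval excluded 0 were those of the ER chaperones in WT, −0.016 with no UMI minimum and −0.018 with equal weights, of the S phase genes in WT, −0.048 with equal weights, of the regulatory T cell markers in WT, 0.056 without the cells richest in naïve genes, and of glycolysis in IFT20-KO, −0.035 with equal weights, −0.0067 without the cells richest in naïve genes and −0.0043 without *Psat1*. *Igfbp4* in WT was 0.15 without the cells richest in naïve genes, a list that holds *Igfbp4* itself. Medians whose interval included 0 crossed it too, among them those of G2/M in WT (to −0.058 with equal weights), glycolysis in WT, mitochondrial synthetases in WT, NRF2 targets in WT, cholesterol genes, CD8 and NK markers and, in IFT20-KO, regulatory T cell markers. The causes were not tested. A median WT member held 16 score UMIs and a median IFT20-KO member 13, so the rank of a single cell near the threshold is uncertain.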
